A study of Rattus norvegicus with 6 samples.

Results

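The serotonin receptor gene Htr2c and the microRNAs (miRNAs) encoded inside it were examined in rat hippocampus after exposure to benzo[a]pyrene, abbreviated B[a]P, which is a combustion product of the polycyclic aromatic class. Members were taken by name: Htr2c from the mRNA tables, and every arm of miR-1298, miR-448, miR-1912, miR-1264 and miR-764 from the miRNA tables. This gave 8 members, which were 1 of the 35362 mRNA symbols and 7 of the 765 miRNA rows. The rows were rno-miR-1298, rno-miR-448-3p, rno-miR-448-5p, rno-miR-1912-3p, rno-miR-1912-5p, rno-miR-764-3p and rno-miR-764-5p, and miR-1264 had no row. The species prefix rno is left out from here on where no row is cited in full. The members were proposed because of their values in these same libraries, so every ratio below is a description and none was tested.

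Sprague-Dawley rats received B[a]P in corn oil by daily gavage at 2.0 mg/kg, and control rats received corn oil alone. The labels give an age of 7 weeks for all samples and a gavage of 7 weeks for the RNA-seq samples, and they do not say whether the age is that at the start or at the end. Hippocampus was frozen, and each condition had 1 RNA-seq library, 1 miRNA-seq library and 1 library of bisulfite-treated DNA, which was not used here. With 1 library per group there is no replicate check: every difference is between 2 libraries, not between conditions. The labels do not say whether the RNA-seq and miRNA-seq libraries came from the same animals, or whether animals were pooled.

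Htr2c encodes the 5-HT2C receptor, which couples through Gq to phospholipase C. It is expressed in many neurons and very strongly in the choroid plexus, the epithelium that makes cerebrospinal fluid. Its pre-mRNA is edited by ADAR enzymes and carries several miRNA hairpins. Such intronic hairpins are usually cut out of the host transcript by Drosha and DGCR8 and then by Dicer, and mostly 1 arm of each is kept in an Argonaute protein, where its seed pairs with target mRNAs.

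The mature sequences show how many distinct regulators the gene carries. RefSeq (build GRCr8) held 6 of the 7 member rows, which are printed 5′ to 3′ in their order along the gene with the seed (bases 2 to 8) in capitals.
miR-764-3p: gAGGAGGCcauaguggcaacugu
miR-1912-5p: uGCUCAUUgcaugggcuaugu
miR-1912-3p: cACAGAACaugcagugaga
miR-1298: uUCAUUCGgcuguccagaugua
miR-448-5p: aACAUCCUgcauagugcugcca
miR-448-3p: uUGCAUAUguaggauguccca
All 6 seeds differed from each other. None was the seed of another miRNA among the 693 names in the RefSeq table, so these miRNAs share a host gene and not a seed family. miR-764-5p is named only.

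The precursors are shown because the arms of miR-448 had different ratios between the libraries. Mature arms that have both a row in the tables and a RefSeq sequence are in capitals.
Mir764: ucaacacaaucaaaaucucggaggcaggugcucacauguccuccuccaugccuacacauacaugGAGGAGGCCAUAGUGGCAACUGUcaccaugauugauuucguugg
Mir1912: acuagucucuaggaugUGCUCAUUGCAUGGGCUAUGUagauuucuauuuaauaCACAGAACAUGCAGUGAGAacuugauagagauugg
Mir1298: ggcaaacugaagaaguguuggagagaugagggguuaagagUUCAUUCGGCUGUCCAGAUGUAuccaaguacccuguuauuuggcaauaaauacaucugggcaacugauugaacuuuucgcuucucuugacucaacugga
Mir448: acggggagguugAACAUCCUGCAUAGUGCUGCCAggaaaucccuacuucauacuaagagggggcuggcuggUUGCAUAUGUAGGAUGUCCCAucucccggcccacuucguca
In GRCr8, on the plus strand, Mir764 lies at chrX:115490638-115490745, Mir1912 at chrX:115498019-115498106, Mir1298 at chrX:115556947-115557085 and Mir448 at chrX:115641955-115642066. All 4 lie within the span of Htr2c, on its strand. The span also held the miRNA gene Mir3552 and the small nucleolar RNA gene Snora35. The table gives gene spans and no exons, so their intronic position was taken as stated and not checked.

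The labelled tissue was visible in both RNA-seq libraries: all 10 hippocampal neuron markers on the list used were between 7.55 and 57.4 FPKM (fragments per kilobase of transcript and per M fragments, M standing for mega). In the miRNA-seq libraries, 1 read was worth a fixed amount of RPM (reads per M reads of the library). The totals were 14.4 M reads with B[a]P and 16.3 M reads in the control, of which 46.9% (B[a]P) and 37.1% (control) were assigned to miRNAs. Read numbers and their 95% intervals, which cover counting error only, follow from these steps.

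Markers of the choroid plexus, and for miRNAs also of multiciliated epithelium, stood apart between the libraries of each assay, and in opposite directions. Of 20 choroid plexus epithelium genes, 19 reached 1 FPKM in either RNA-seq library, and 17 of these were lower by 2-fold or more with B[a]P, against 0.520% of all symbols. Of the 19, 8 reached 1 FPKM in both libraries. The others passed through the control library, in which they were higher, so the count of 17 supports nothing by itself. The summed level of the 20 genes was 101 FPKM (B[a]P) and 3652 FPKM (control). The gene of transthyretin, Ttr, which carries thyroid hormone, made up most of it in both, with 60.5 and 3300.2 FPKM. No gene of the list was at 0 in either library, and the lowest, the transcription factor gene Otx2, had 0.00692 and 0.0180 FPKM. Of 15 miRNAs of choroid plexus and multiciliated epithelium, 7 reached 10 RPM in either library and were at least 2-fold higher in the B[a]P library, where 3.92% of all miRNAs at that level were. Only 2 of the 7, miR-204-5p and miR-34c-5p, reached 10 RPM in both, and the other 5 passed through the library in which they were higher, so the count supports nothing by itself. The summed level over the whole list was 5080 RPM (B[a]P) and 936 RPM (control), and miR-211-3p, miR-449c-5p and miR-141-3p were listed at 0 in both. The part of this difference in the values of Htr2c and its miRNAs was not tested.

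Htr2c mRNA was lower in the B[a]P RNA-seq library. Its level was 19.5 FPKM with B[a]P and 29.0 FPKM with corn oil alone, which is 1.49-fold lower. On the scale of log2(FPKM + 1), used for all mRNA ratios, the difference was -0.55, while the median over the 13261 symbols at 1 FPKM or more in either library was 0.09 (SD 0.25 across symbols). Htr2c was the 169th lowest of these ratios. It fell short of a 2-fold difference but was past 0.5 on the log2 scale, as were 1.44% of all symbols in that direction. In bulk tissue, fewer cells expressing a gene and less RNA in each cell cannot be told apart.

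**Figure D1:**
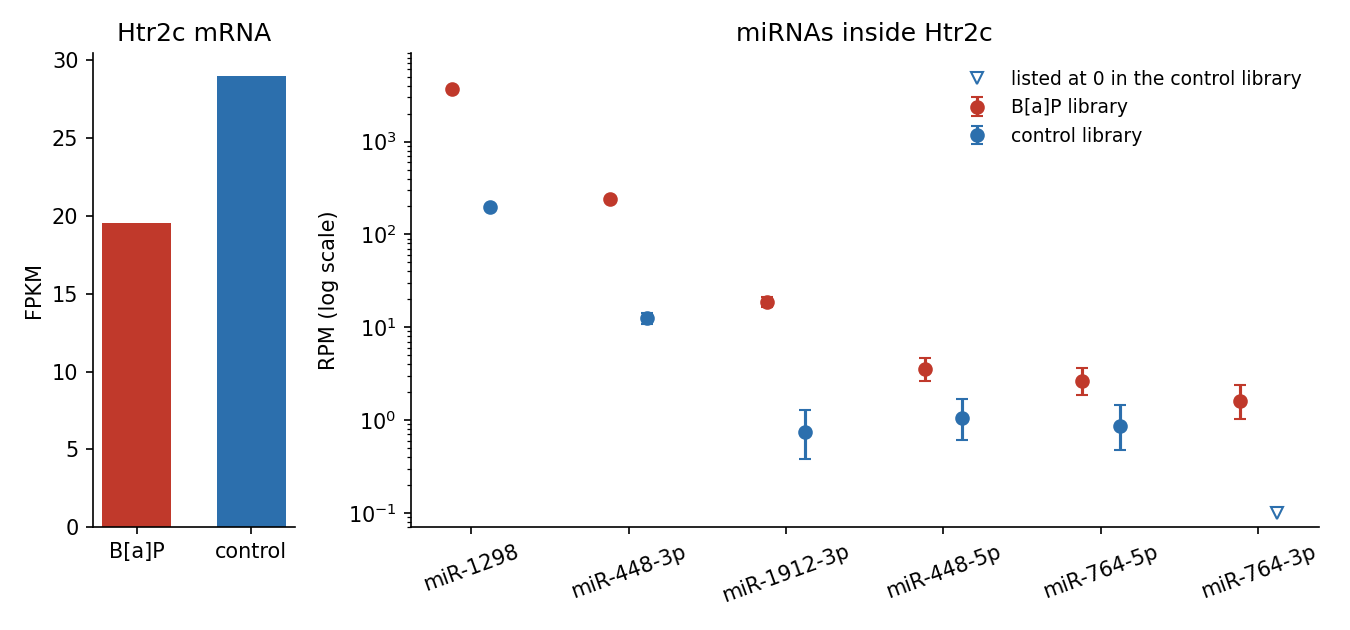
Left, Htr2c in FPKM (bars from 0) in the B[a]P and control RNA-seq libraries. Right, the 6 member miRNAs with reads, in RPM on a log scale, with exact Poisson 95% intervals as error bars; the open triangle marks miR-764-3p, listed at 0 in the control library. Htr2c is lower in the B[a]P library (19.5 against 29.0 FPKM), and every miRNA shown is higher there.

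The 3 member miRNAs that reached 10 RPM in either library went the other way. rno-miR-1298, the most abundant, was at 3664 RPM (52618 reads) in the B[a]P library and 197 RPM (3198 reads) in the control library. This was an 18.6-fold higher level (95% interval 18.0 to 19.3). Among all miRNAs it ranked 30th by level in the B[a]P library and 126th in the control library. It took 0.781% of all miRNA reads in the former and 0.0530% in the latter.

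rno-miR-448-3p was at 240.5 RPM (3453 reads) in the B[a]P library and 12.5 RPM (204 reads) in the control library, 19.2-fold higher (95% interval 16.6 to 22.2). Its rank by level was 128th and 300th. rno-miR-1912-3p was far rarer, at 18.7 RPM (268 reads) and 0.738 RPM (12 reads), and 25.3-fold higher (95% interval 14.2 to 49.6). The 3 intervals overlap, so at this depth the 3 folds could not be distinguished.

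These were the only member rows at 10 RPM or more in either library, and they held the 3 highest log2 ratios of the 332 miRNAs at that level. All 3 were at least 2-fold higher in the B[a]P library, as were 13 miRNAs (3.92%) in all. The members were chosen on this contrast, so nothing is read from that count. The whole miRNA table leaned the same way, with a median log2 ratio of 0.36. Above that median, miR-1298 stood out by 3.85, miR-448-3p by 3.80 and miR-1912-3p by 3.14, as differences of log2 ratios on the scale of log2(RPM + 1), which pulls down the ratio of the rare miR-1912-3p.

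**Figure D2:**
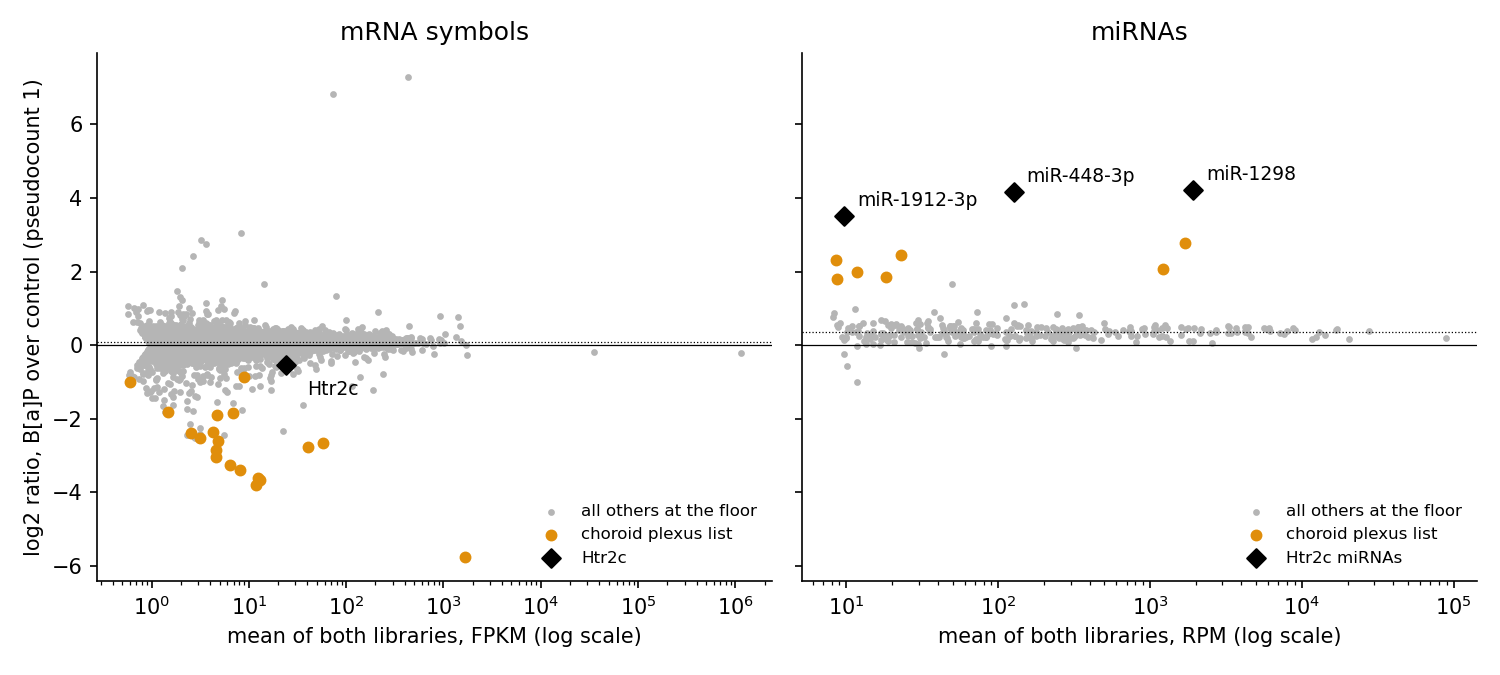
Log2 ratio of the B[a]P over the control library (pseudocount 1) against the mean level of both libraries on a log scale, for mRNA symbols at 1 FPKM (left) and miRNAs at 10 RPM (right) in either library. Dotted lines are the medians (0.09 and 0.36). Htr2c lies below the bulk at -0.55 but above the 19 choroid plexus genes. Its 3 miRNAs, from 3.50 to 4.21, lie above the 7 miRNAs of the list of choroid plexus and multiciliated epithelium.

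The proportion of miR-1298 to miR-448-3p was nearly the same in both libraries. Such proportions restate the folds above in a form that does not depend on how the libraries are scaled. There were 15.2 reads of miR-1298 per read of miR-448-3p in the B[a]P library (95% interval 14.7 to 15.8) and 15.7 in the control library (13.6 to 18.1). Per read of miR-1912-3p there were 196 reads of miR-1298 in the B[a]P library (174 to 222) and 266.5 in the control library (152 to 516). The latter rests on 12 reads of miR-1912-3p, too few to say whether this proportion was kept. Of all 56451 reads of member rows in the B[a]P library, 93.2% were miR-1298 and 6.12% miR-448-3p. Of the 3445 in the control library, 92.8% were miR-1298 and 5.92% miR-448-3p. Both pairs of exact binomial intervals overlap, so no difference in these shares was detectable at this depth.

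Of the other rows, all below 10 RPM in both libraries, those with reads in both had smaller folds. miR-448-5p, from the same hairpin as miR-448-3p, was at 3.55 RPM (51 reads) in the B[a]P library and 1.05 RPM (17 reads) in the control library, 3.40-fold higher (95% interval 1.93 to 6.28). miR-764-5p was at 2.65 RPM (38 reads) and 0.861 RPM (14 reads), 3.07-fold higher (1.63 to 6.14). Both intervals lie below those of miR-1298, miR-448-3p and miR-1912-3p. In the control library miR-1912-3p had fewer reads (12) than either of these rows, and in the B[a]P library it had more (268). Whether the folds depend on level was not tested. miR-764-3p had 1.60 RPM (23 reads) in the B[a]P library and was listed at 0 in the control library. miR-1912-5p was listed at 0 in both. The tables hold no value between 0 and 10 reads, so a listed 0 may stand for a few reads.

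The arms of miR-448 showed this within 1 precursor. The B[a]P library held 67.7 reads of the 3p arm per read of the 5p arm (95% interval 51.4 to 91.1), and the control library 12 (7.31 to 21.0). These intervals do not overlap. The arm balance therefore differed by 2.50 on the log2 scale. Over the 127 precursors with both arms above 0 in both libraries, this was the largest absolute shift, and the next was 0.91 for miR-152, in the other direction. The median absolute shift was 0.15 and the 90th percentile 0.47. The comparison over all precursors was added after the values of miR-448 had been seen, and the precursor rests on the 17 control reads of its 5p arm. Since miR-448-3p was chosen on this contrast, nothing is read from the place of miR-448 above the other precursors.

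**Figure D3:**
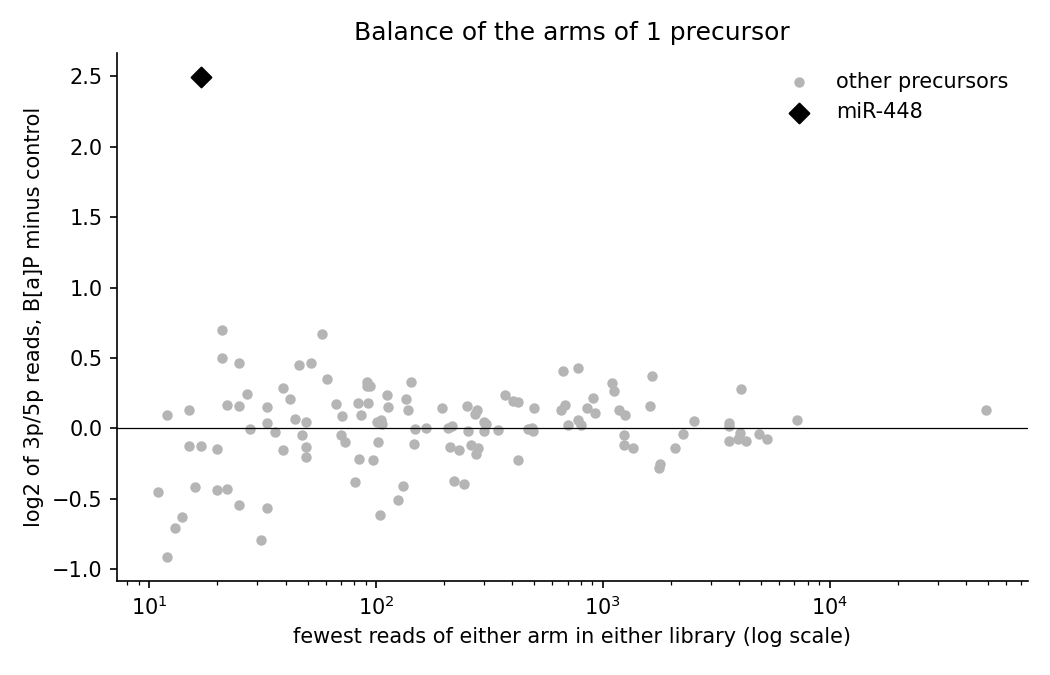
Shift in arm balance (log2 of 3p over 5p reads, B[a]P minus control) against the fewest reads of either arm in either library, on a log scale, for 127 miRNA precursors. miR-448 lies at 2.50, and all other precursors lie within 0.91 of 0.

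Mir3552, the miRNA gene of the same span that the choice of members left out, had a fold near those of miR-448-5p and miR-764-5p. miR-3552 was at 6.48 RPM (93 reads) in the B[a]P library and 2.64 RPM (43 reads) in the control library, 2.45-fold higher (95% interval 1.69 to 3.60). The table's median corresponds to 1.28-fold. The miRNA rows of the span with reads in both libraries were thus all higher with B[a]P, by 2.45-fold to 25.3-fold, whereas Htr2c mRNA was lower. Being higher was the rule for miRNAs: over all at 10 RPM or more, the 5th percentile of log2 ratios was 0.07. The direction alone is therefore not particular to this span.

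The host and its miRNAs were then set side by side. The miRNA-seq and RNA-seq tables were scaled separately, so only the ratios are compared, not the levels. The log2 ratio of miR-1298 exceeded that of Htr2c by 4.76, that of miR-448-3p by 4.71 and that of miR-1912-3p by 4.05. After each table was centred on its own median, the gaps were 4.49, 4.43 and 3.78. The sign differed between host and miRNA for all 3, which share 1 host and were chosen on this contrast. The choroid plexus mRNAs and the miRNAs of choroid plexus and multiciliated epithelium above differed in sign in the same way. With the 5th percentile of miRNA log2 ratios at 0.07, a host with a ratio below 0 would nearly always differ in sign from its miRNA. Among the other pairs described next, every host below 0 had a miRNA above 0, such as Copz2 with miR-152-3p and Col27a1 with miR-455-3p. The pairs that did not differ in sign had hosts above 0. Whether the libraries of the 2 assays share animals, dissections or label assignment was not tested.

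Other miRNAs inside protein-coding genes give the scale of such gaps. RefSeq placed 69 other mature miRNAs from a single precursor within 52 other hosts on the same strand, with the miRNA at 10 RPM and the host at 1 FPKM in either library, which made 70 pairs. Their median gap was 0.30, with quartiles of 0.12 and 0.43, and 66 of 70 gaps were within 1 in size. The 4 larger ones were miR-204-5p (2.99) and miR-204-3p (2.52) in Trpm3, miR-152-3p (1.62) in Copz2 and miR-455-3p (1.07) in Col27a1. The gaps of the Htr2c miRNAs were 4.05 or more, but they were chosen on this contrast, and miR-1912-3p passed 10 RPM only in the B[a]P library, so nothing is read from their place above the other pairs. Pairs that share a host or a precursor are not independent, and these values describe 2 libraries per assay.

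miR-204 and Trpm3, a cation channel gene whose intron carries this choroid plexus miRNA, had the next largest gaps. Trpm3 was at 5.91 FPKM (B[a]P) and 6.97 FPKM (control), a log2 ratio of -0.21. miR-204-5p was at 2952 RPM (42386 reads) and 428 RPM (6959 reads), 6.90-fold higher (95% interval 6.73 to 7.08). Its other arm, miR-204-3p, was 6.76-fold higher (4.74 to 9.92), so the intervals of both arms overlap, whereas those of the miR-448 arms do not.

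**Figure D4:**
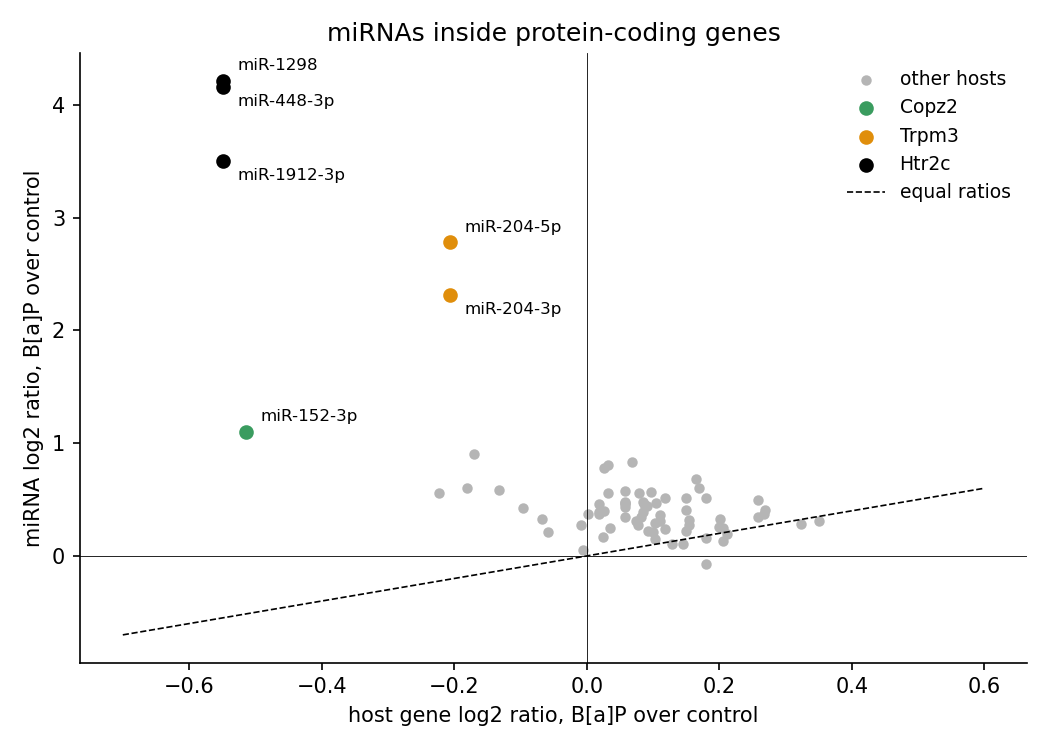
Log2 ratio of the miRNA against that of its host gene (B[a]P over control, pseudocount 1) for the 73 pairs of a miRNA at 10 RPM and a protein-coding host at 1 FPKM. The dashed line marks equal ratios. The 3 miRNAs of Htr2c lie farthest from it, followed by those of Trpm3, while 66 of the 70 other pairs lie within 1 of it.

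Among the miRNAs outside the gene, those with ratios nearest to miR-1298 across the 2 libraries were miR-204-5p (log2 ratio 2.78), miR-34b-5p (2.44), miR-204-3p (2.31), miR-34c-5p (2.06) and miR-34c-3p (2.00). None came within 1 of miR-1298 at 4.21. miR-34b and miR-34c are abundant in ciliated epithelium. miRNAs of neurons lay near the table's median: all 7 on the list were between 0.19 and 0.39, and miR-9a-5p, the most abundant, was at 95687 and 83263 RPM.

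For Htr2c itself, near ratios were those of Abhd14a (-0.55), Epn3 (-0.54), Gpx1 (-0.54) and Gpr183 (-0.54). Gpx1 encodes a glutathione peroxidase and was at 39.2 against 57.5 FPKM. With 2 libraries, likeness of pattern means only likeness of this 1 ratio. The difference in Htr2c was smaller than that of every choroid plexus gene at 1 FPKM, which had log2 ratios from -5.75 (Ttr) to -0.86 (Calml4) and a median of -2.66. Kl, which encodes klotho, was at 0.724 against 23.1 FPKM, and Folr1, the folate receptor gene, at 1.02 against 24.8 FPKM. Ciliary genes of the ependyma, which lines the ventricles, were mixed over the whole list: of 8, 4 were lower and 4 higher with B[a]P. The 5 that reached 1 FPKM in either library leaned lower, with a median log2 ratio of -0.42. Of these 5, 2 were lower past 0.5, as were 1.44% of all symbols, and 1 was above the median of all symbols. The regulator of ciliogenesis Foxj1 had 1.94 FPKM with B[a]P and 4.77 in the control, Rsph1 had 1.06 and 2.10, and the dynein light chain gene Dynlrb2 had 3.53 and 5.07. Spag6 had 1.22 and 1.67 FPKM and Ccdc153 had 1.65 and 1.38 FPKM, while Tmem212, Ak7 and Hydin stayed below 1 FPKM with log2 ratios from 0.03 to 0.08. The 8 pan-neuronal markers had log2 ratios from 0.06 to 0.45, of which 6 were above the median of all symbols (0.09). The 10 hippocampal neuron markers ranged from -0.16 (Fibcd1) to 0.33 (Prox1), of which 5 were above it. Map2 had 151 and 111 FPKM, and the highest level of the list was that of Uchl1 (429 and 383 FPKM).

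Htr2c was then set among the other serotonin receptor genes. Of the 14 receptor genes listed, 10 reached 1 FPKM in either library, and with the pseudocount of 1, Htr2c was the only one past 0.5 on the log2 scale in either direction (1.44% of all symbols lower, 0.897% higher). By the plain ratio of FPKM, the low-level gene Htr1f differed more, at 1.54-fold higher against 1.49-fold lower for Htr2c. Their median log2 ratio was 0.00. Its place in the family differed between the libraries: Htr2c was the highest receptor gene in the control library, above Htr1a (29.0 against 25.9 FPKM), and second to it in the B[a]P library (19.5 against 26.5 FPKM). Htr1a, which encodes an inhibitory receptor of pyramidal and raphe neurons, had a log2 ratio of 0.03.

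The closest relatives of Htr2c differed less. Htr2a, which encodes the other main Gq-coupled serotonin receptor of brain, was at 3.80 FPKM (B[a]P) and 4.62 FPKM (control), a log2 ratio of -0.23. Htr2b was at 0.229 and 0.180 FPKM, below the minimum level. Among the Gi- or Gs-coupled receptor genes, Htr1b was at 5.59 against 5.74 FPKM, Htr1f at 1.50 against 0.976 FPKM and Htr4 at 2.66 against 2.07 FPKM. Htr5a was at 4.12 against 3.09 FPKM and Htr5b at 5.49 against 7.09 FPKM, log2 ratios of 0.32 and -0.32. Htr6 was at 1.02 against 0.805 FPKM. The ion channel subunit gene Htr3a was at 2.24 against 2.30 FPKM, Htr1d at 0.099 against 0.0987 FPKM and Htr3b at 0 against 0.008 FPKM, while Htr7 was listed at 0 in both.

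**Figure D5:**
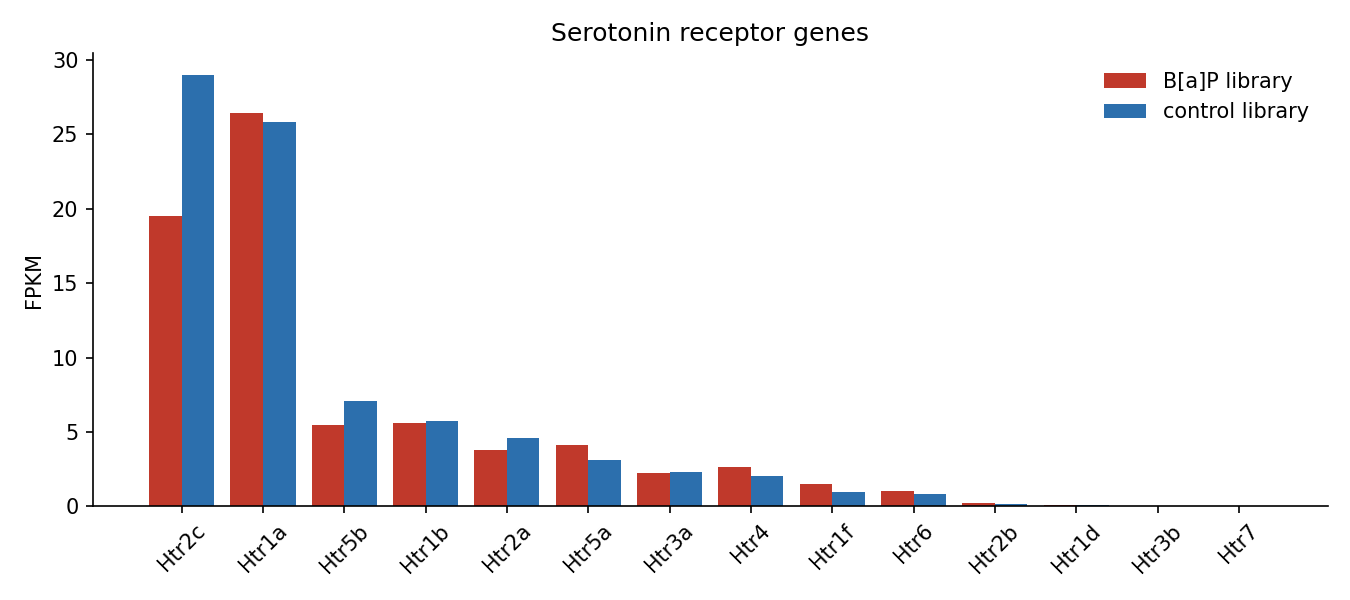
Level in FPKM of the 14 serotonin receptor genes in the B[a]P and control RNA-seq libraries, ordered by the control library; bars start at 0. Htr2c is the highest in the control library and second to Htr1a in the B[a]P library.

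Of 18 genes of Gq signalling and receptor regulation, 17 were listed and 15 reached 1 FPKM. None of the 15 was past 0.5 on the log2 scale, where 0.897% of all symbols were higher and 1.44% lower, so a count of 0 is near the background. Their median was 0.13, against 0.09 over all symbols. Gnaq, which encodes the G protein subunit itself, was at 43.6 against 36.6 FPKM, the phospholipase gene Plcb1 at 29.4 against 23.6 FPKM and the protein kinase C gene Prkca at 34.4 against 28.4 FPKM. Arrb1, which encodes a beta-arrestin that binds activated receptors, had the largest ratio of the list (0.35), at 43.3 against 33.9 FPKM. Prkcb had the highest level, 75.7 against 72.4 FPKM. All 4 genes of the list of PDZ scaffold proteins, which bind receptor tails, were within 0.5, among them Mpdz (10.9 against 8.96 FPKM), Dlg4 (39.2 against 35.4 FPKM) and Dlg3 (26.0 against 23.4 FPKM).

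Of the enzymes that edit RNA, Adar was at 18.0 against 15.8 FPKM, Adarb1 at 14.9 against 13.1 FPKM and Adarb2, which has no known editing activity, at 5.75 against 4.90 FPKM. Their log2 ratios were between 0.17 and 0.19. Editing itself was not measured in these tables. Of the 7 genes of serotonin synthesis, transport and breakdown, 4 reached 1 FPKM and only Tph1 was past 0.5 (0.897% of all symbols were, in that direction), at 1.14 against 0.0179 FPKM. Its log2 ratio of 1.07 was also past 2-fold, as were 0.151% of all symbols in that direction. Tph1 passed 1 FPKM only in the B[a]P library, in which it was higher, so nothing is read from this. Tph1 encodes the tryptophan hydroxylase of the pineal gland and gut. The neuronal enzyme gene Tph2 was at 0.440 against 0.342 FPKM, the serotonin transporter gene Slc6a4 at 0.0295 against 0.0438 FPKM, and the monoamine oxidase genes Maoa and Maob at 21.0 against 19.0 FPKM and 18.3 against 15.8 FPKM.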

How the data were processed

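The mRNA tables hold 1 value per symbol as deposited, taken as FPKM from the values, since no label states the unit; their depth is unknown, and FPKM values have no interval. For miRNAs the authors deposited RPM values. Each was, within 0.01 of a read, a whole multiple of a step that was fixed within a library, which gave the read numbers; the smallest above 0 was 10 reads. Per the submitters' processing notes, bcl2fastq and the builds rn6 and rn5 were used, with no role stated. The aligner, the counting tool and the handling of reads that match several miRNAs are not given in the sources used here. Ratios are log2 of (value + 1), over features at 1 FPKM or 10 RPM in either library, and folds of single features have no pseudocount. No p-value was computed. Intervals are exact Poisson for levels, exact (Clopper-Pearson) binomial for shares and exact conditional binomial for ratios. They cover counting error only, and reads are not independent molecules. The step fit and the intervals were tested on simulated counts. Members and lists were chosen with earlier results of these data known. The text names all members, all serotonin receptor genes, the 5 nearest ratios to Htr2c (1 of which is not reported here) and to miR-1298, the leading genes of each list by level and ratio, the genes beside Htr2c and the largest gaps between a miRNA and its host. miR-3552, Igf2 and the arm balance were added after their values were seen. The list of hippocampal neuron markers was not among the lists planned at the start. Of 765 miRNA rows, 690 matched a RefSeq (GRCr8) mature sequence by name. The lncRNA tables have no line for Htr2c, and the methylation tables were not used, since no annotation of their build was at hand. Python 3.11.15, pandas 2.3.3, NumPy 2.4.6 and SciPy 1.17.1 were used.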

Additional observations from a re-analysis of the deposited data

How the results depend on the processing

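None of the 49 alternatives run over 15 results reversed a direction, which the counts of features past 2-fold could not do by their nature. By the tolerance set for each result, 25 alternatives moved the value and 24 left it the same. For Htr2c the log2 ratio of -0.55 was -0.57 with a pseudocount of 0.1 or none and -0.63 with library medians equalised. For miR-1298 the 4.21 became 3.88 when scaled to miRNA reads, 3.89 without the members in that total and 3.85 with median-of-ratios scaling, which moved the whole table by 0.37; for miR-448-3p the 4.16 became 3.88, 3.90 and 3.80. Without a pseudocount miR-1912-3p went from 3.50 to 4.66 and its gap to Htr2c from 4.05 to 5.23. With both tables centred on their medians, the gaps were 4.49 for miR-1298 and 4.43 for miR-448-3p. Of the other miRNA and host pairs, the median gap was 0.29 and the largest 3.02 without pseudocount, and the median 0.20 at floors of 50 RPM and 5 FPKM. The number of symbols at least 2-fold higher and lower, 20 and 69, was 53 and 127 with a pseudocount of 0.1 and 11 and 36 at a floor of 5 FPKM. Of miRNAs, 13 were higher and 0 lower; the former was 26 with no floor and 7 at 50 RPM, and the latter 1 with no floor, no pseudocount or median-of-ratios scaling. No paired analysis was possible because each group has 1 library, and for the same reason no library could be left out. Depth limits miR-1912-3p, miR-448-5p, miR-764-5p and miR-764-3p, which had at most 17 control reads each.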

Other observations

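Of the nearest protein-coding genes to either side of Htr2c on the X chromosome, by their order in RefSeq, 2 reached 1 FPKM. Both were higher with B[a]P, as most symbols were. Amot, which encodes the junction protein angiomotin and precedes it, was at 7.81 FPKM (B[a]P) and 6.13 FPKM (control), a log2 ratio of 0.31. Lrch2, on the other side, was at 3.02 and 2.34 FPKM, a log2 ratio of 0.27. Over all symbols at 1 FPKM, the median was 0.09 and the 95th percentile 0.31. Nothing about the region is read from 2 genes. Il13ra2, a decoy receptor gene for interleukin-13, and Lhfpl1 were below 1 FPKM in both libraries, and Rtl4 and Luzp4 had no row under these symbols.

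Of the genes that make miRNAs from hairpins, all 12 on the list reached 1 FPKM and none was past 0.5 on the log2 scale, which is near the background of 0.897% of all symbols higher and 1.44% lower. Their median was 0.13, against 0.09 over all symbols. The nuclease genes Drosha and Dicer1 were at 8.12 against 7.24 FPKM and 4.75 against 3.95 FPKM, and the export factor gene Xpo5 at 10.1 against 8.73 FPKM. Ddx5, which encodes a helicase of the Drosha complex, was the most abundant at 167 against 146 FPKM.

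Another miRNA and host pair of opposite ratios lay below the minimum level. miR-483-3p, encoded within the growth factor gene Igf2, was at 1.74 RPM in the B[a]P library and 0.676 RPM in the control library, and miR-483-5p at 1.25 RPM and listed at 0. Igf2 was at 3.37 and 13.8 FPKM. The miRNA values rest on few reads, and whether the difference exceeds biological variation was not tested.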
